A study of Mus musculus with 2 samples.

Results

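Ribosome assembly factors are proteins that process pre-ribosomal RNA and fold it with ribosomal proteins, and most of them leave before the ribosome is complete. A set of 60 genes for such factors was chosen by gene name, with earlier results of these data known, and 58 of them could be named in the files, among 9695 genes named in all. 32 of the 60 act on the small subunit, 26 on the large subunit, and 2 encode nucleolar proteins that were placed in neither. They were measured in 2 RNA sequencing libraries of splenic CD4+ T cells from male C57BL/6JJcl mice, each made from total RNA of cells pooled from 4 spleens; the age of the mice is not given in the sources used here. In the stimulated library the cells had been kept for 4 h on plates coated with antibodies at 2 ug/ml each, 1 to the T cell receptor chain CD3e and 1 to CD28, a receptor for costimulation. In the mock library the cells were handled alike with both antibodies left out. The title of the series names the early events of T cell activation as its subject. With 1 library per group there is no replicate check, so no p-value is given, and every difference is one between these 2 libraries of pooled cells.

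Ribosomes are made in the nucleolus, where RNA polymerase I transcribes a long precursor that carries the RNAs of both subunits. On the 5′ part of this precursor the UtpA and UtpB complexes, the U3 small nucleolar ribonucleoprotein and many single factors build the small subunit processome, which is cut, remodelled by helicases and exported. The large subunit is assembled on the 3′ part by the PeBoW complex, DEAD-box helicases, GTPases and the giant ATPase Mdn1. Resting T cells are small and make little protein, and antigen receptor signals lead them to grow before they divide, a state in which ribosome production is known to increase.

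Expression was read from splice junctions. Reads that span one numbered 1341197 on 97395 junctions in the stimulated library and 1147232 on 97850 junctions in the mock library. A gene's value is the sum over its named junctions per 1000000 junction reads (RPM), and ratios are of RPM, stimulated over mock, with an exact (Clopper-Pearson) 95% interval that covers counting error only. A gene counts as measured when both libraries together hold at least 20 of its reads, and it is called higher or lower when the ratio is at least 2, or at most 0.5, and the interval excludes 1. The 10 T cell markers were present in both libraries and summed to 7119 stimulated and 5669 mock reads, but they did not move together: Zap70 was called higher (ratio 4.21), Cd4 (0.375) and Cd247 (0.313) were called lower, the other 7 were neither, and the median log2 ratio was -0.43. Markers of other cells were few in both libraries, with 155 stimulated and 184 mock reads for 7 B cell genes, 39 stimulated and 47 mock reads for 6 named myeloid genes, and 56 stimulated and 45 mock reads for 2 natural killer cell genes. Of those 2, Eomes was called higher, with 36 stimulated and 7 mock reads, and Klrd1 lower, with 20 stimulated and 38 mock reads. Cd8b1, of CD8 T cells, was called lower with 5 stimulated and 16 mock reads, and the 2 named erythroid and platelet genes had 20 stimulated and 19 mock reads. Among the myeloid genes Cybb was called higher, with 19 stimulated and 5 mock reads, Csf1r had 7 stimulated and 6 mock reads, Cd68 had 11 stimulated and 10 mock reads, Adgre1 had 2 stimulated and 3 mock reads, Lyz2 had 0 stimulated and 15 mock reads, and Flt3 had 0 stimulated and 8 mock reads. The part of other cells in the members' ratios was not tested. The markers Cd8a, Itgam, Fcgr3, Cd14, Ncr1, Klrb1c, Hba-a1, Hbb-bt and Pf4 were not named and have no value. All 6 genes of a list known to increase in activated T cells were called higher, Il2 with 92 stimulated reads and 0 mock reads. In bulk RNA, fewer cells of a type and less RNA per cell cannot be told apart.

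Transcripts of nearly all of these assembly factors were more abundant in the stimulated library. Of the 58 measured members 57 were called higher, none was called lower, and 1, the helicase gene Ddx52, was neither. Over all 7204 measured genes 17.1% were called higher and 25.1% lower. The median log2 ratio of the members was 2.41, a 5.30-fold ratio, and their range was -0.26 to 6.81, beside a median of -0.21 over all measured genes. The members summed to 32920 reads in the stimulated library, 2.45% of its junction reads, and to 5365 reads in the mock library, 0.468% of its reads. The members of both subunits had similar medians, 2.29 for the 32 of the small subunit and 2.56 for the 24 measured ones of the large subunit.

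Most members differed by more than the 2-fold limit of the call. A ratio of at least 4 was found in 43 of the 58 members, against 6.72% of all measured genes, and one of at least 8 in 11 members, against 2.72%. The lower limit of the interval lay above 2 in 54 members, against 9.86% of all measured genes, and above 4 in 29 members, against 3.41%. 56 of the 58 members had at least 100 reads in the stimulated library, while 5 had fewer than 10 reads in the mock library, where counting error widens the interval.

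**Figure D1:**
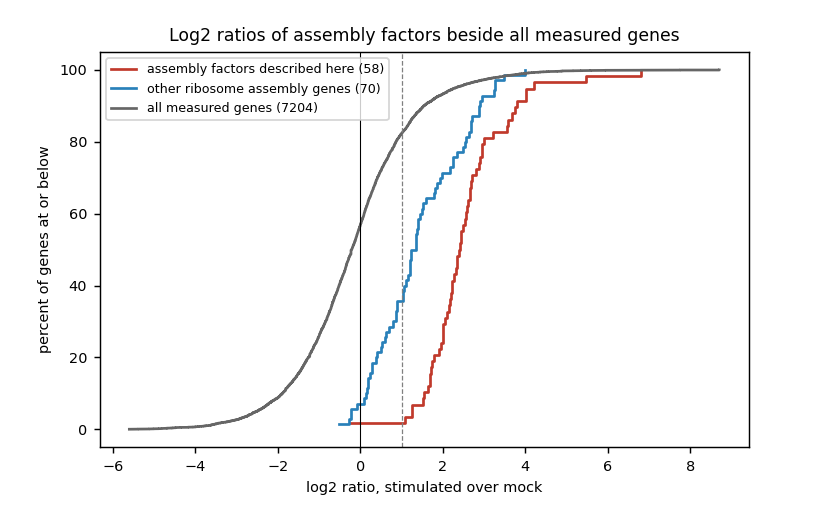
Cumulative distribution of log2 ratios, stimulated over mock, for the 58 measured assembly factors (red), 70 other measured ribosome assembly genes (blue) and all 7204 measured genes (grey); the y axis is the percent of genes at or below each ratio, and the dashed line marks a 2-fold ratio. The red curve lies to the right of the grey one over nearly its whole length, with medians of 2.41 and -0.21, and the blue curve lies between them with a median of 1.28.

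Since nearly all members were higher, their promoters were read in a RefSeq table of GRCm38.p6 that gives 250 bases before and 50 bases after each gene's start, which matched 50 of the 60 members with 55 promoters. The letters CACGTG, the E-box that Myc and related factors bind, were searched on both strands. They stood in 13 of the 55 member promoters (23.6%), in 23.3% of the promoters of other ribosome assembly genes, in 10.7% of those of all measured genes, in 14.8% of those of genes called higher and in 7.15% of all 32851 promoters in the table. Of the 13 copies 12 began within 100 bases of the start, and 8 of the 13 lay after it. The Ets motif CCGGAAG, searched in the same way, stood in 23 member promoters (41.8%), in 43.8% of the promoters of other ribosome assembly genes, in 20.6% of those of measured genes, in 21.5% of those of genes called higher and in 8.86% of all. Neither motif contains the other, and 6 member promoters held both, 30 held at least 1 of them and 25 held neither. A GC box (GGGCGG) and a CCAAT box (CCAAT) were searched as well. GGGCGG stood in 74.5% of member promoters, 65.2% of those of measured genes and 35.7% of all. In the promoters of other ribosome assembly genes its share was 54.8%, below that of measured genes. CCAAT stood in 36.4% of member promoters, 26.0% of those of other ribosome assembly genes, 36.4% of those of measured genes and 37.4% of all. The 13 measured members with CACGTG had a median log2 ratio of 2.67 and the 35 without it one of 2.45. A match is a stretch of letters and not a binding site, and binding was not measured here.

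The promoters of the 4 members with the highest ratios among those in the table, and that of Ddx52, the member not called higher, are printed to show what such windows hold. They are given on the gene's strand from 5′ to 3′, in lower case, with copies of CACGTG and of the Ets motif on either strand in capitals, and the gene starts 50 bases before the end of each. Utp20 carries an E-box just after its start, Pwp2 and Rrp15 carry the Ets motif, and Bysl and Ddx52 carry neither motif.
Bysl, chr17:47611443-47611742, minus strand, GRCm38.p6: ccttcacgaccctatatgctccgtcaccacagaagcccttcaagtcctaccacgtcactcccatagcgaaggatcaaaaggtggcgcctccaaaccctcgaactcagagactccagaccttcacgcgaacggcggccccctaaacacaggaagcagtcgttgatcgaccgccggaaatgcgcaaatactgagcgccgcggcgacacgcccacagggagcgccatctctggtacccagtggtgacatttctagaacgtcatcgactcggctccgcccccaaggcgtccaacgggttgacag
Pwp2, chr10:78185100-78185399, minus strand, GRCm38.p6: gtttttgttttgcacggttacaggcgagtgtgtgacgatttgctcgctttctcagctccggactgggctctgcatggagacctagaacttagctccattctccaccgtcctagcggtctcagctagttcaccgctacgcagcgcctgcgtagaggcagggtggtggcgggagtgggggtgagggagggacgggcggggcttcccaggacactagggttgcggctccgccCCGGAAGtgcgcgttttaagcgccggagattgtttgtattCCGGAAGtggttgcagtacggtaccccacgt
Rrp15, chr1:186749309-186749608, minus strand, GRCm38.p6: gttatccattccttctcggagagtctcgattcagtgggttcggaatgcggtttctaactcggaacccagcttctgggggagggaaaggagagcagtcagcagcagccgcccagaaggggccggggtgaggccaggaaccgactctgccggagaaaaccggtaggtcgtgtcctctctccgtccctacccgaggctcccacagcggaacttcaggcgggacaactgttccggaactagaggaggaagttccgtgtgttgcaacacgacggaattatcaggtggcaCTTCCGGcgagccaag
Utp20, chr10:88826765-88827064, minus strand, GRCm38.p6: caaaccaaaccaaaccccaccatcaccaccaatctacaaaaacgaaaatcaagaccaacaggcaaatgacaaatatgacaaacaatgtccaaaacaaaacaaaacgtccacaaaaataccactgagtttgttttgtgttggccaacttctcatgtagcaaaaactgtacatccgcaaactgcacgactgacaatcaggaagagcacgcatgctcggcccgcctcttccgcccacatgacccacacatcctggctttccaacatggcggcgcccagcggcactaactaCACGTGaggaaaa
Ddx52, chr11:83941840-83942139, plus strand, GRCm38.p6: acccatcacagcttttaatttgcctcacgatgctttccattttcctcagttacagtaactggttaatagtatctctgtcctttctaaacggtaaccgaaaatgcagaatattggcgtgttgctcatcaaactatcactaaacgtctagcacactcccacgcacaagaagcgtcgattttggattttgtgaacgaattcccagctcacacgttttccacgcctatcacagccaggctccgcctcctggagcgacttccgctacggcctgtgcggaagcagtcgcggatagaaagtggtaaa
Bysl, with the highest ratio of all members, and Ddx52, with the lowest, both held neither stretch of letters in this window. Their promoters are among the 25 of the 55 member promoters that held neither. The part of these motifs in the ratios was not tested.

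All 6 members of the UtpA complex, the first to bind the nascent precursor and known in human cells to be needed for its transcription, were called higher, with a median log2 ratio of 2.37. Wdr43 had the most reads of them, 1332 in the stimulated library and 162 in the mock library, a ratio of 7.03 (95% interval 5.97 to 8.33), on 19 junctions between chr17:71965826-72006815 (mm9, plus strand). Heatr1, a long protein of helical repeats, had 1172 stimulated and 133 mock reads, a ratio of 7.54 (6.30 to 9.09), the highest of the complex. Utp4, a WD-repeat protein, had 646 stimulated and 165 mock reads and the lowest ratio, 3.35 (2.82 to 4.00). Between them lay Wdr75 with 766 stimulated and 113 mock reads, Nol11 with 427 stimulated and 79 mock reads, and Utp15 with 273 stimulated and 56 mock reads. The 6 ratios thus spanned 3.35 to 7.54, and the intervals of Heatr1 and Wdr43 did not overlap that of Utp4. Here and below, such comparisons between members rest on counting error alone. Intervals widened by the spread between the junctions of a gene, 2.02 times the counting variance, were not compared between members.

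The UtpB complex, built of WD-repeat proteins and Utp6, joins the precursor after UtpA. All 6 of its members were called higher, with a median of 2.08, and 1 of them stood apart from the other 5. Pwp2 had 540 stimulated and 25 mock reads, a ratio of 18.5 (12.4 to 28.8), on 20 junctions between chr10:77634880-77647815 (mm9, minus strand). The other 5 had ratios of 2.88 to 5.41, and none of their intervals reached that of Pwp2. Wdr3, with the most reads, had 529 stimulated and 157 mock reads, a ratio of 2.88 (2.41 to 3.47), and Wdr36 had 342 stimulated and 101 mock reads, a ratio of 2.90. Tbl3 had 310 stimulated and 49 mock reads, Utp18 had 325 stimulated and 62 mock reads, and Utp6 had 365 stimulated and 78 mock reads. The mock count of Pwp2 was the lowest of the complex, while its stimulated count was the highest.

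The 3 partners of the U3 ribonucleoprotein, whose RNA pairs with the precursor, were all called higher with a median of 2.34. Rrp9, which binds the U3 RNA itself, had 415 stimulated and 58 mock reads, a ratio of 6.12 (4.64 to 8.20). Imp4, which helps the U3 RNA pair with its target, had 433 stimulated and 73 mock reads, a ratio of 5.07 (3.95 to 6.59). Mphosph10, which binds Imp4, had 265 stimulated and 66 mock reads, a ratio of 3.43 (2.61 to 4.57). By counting error alone its upper limit, 4.57, lay just below the lower limit of Rrp9, 4.64.

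Of the 12 other factors of the small subunit processome 11 were called higher, and their median was 2.11. Utp20, a very long scaffold of helical repeats, led them with 902 stimulated and 48 mock reads, a ratio of 16.1 (12.02 to 22.0), on 59 junctions between chr10:88209805-88289350 (mm9, minus strand). Its lower limit lay above the upper limit of each of the other 11. Nol10 had 262 stimulated and 34 mock reads, a ratio of 6.59. Noc4l had 396 stimulated and 57 mock reads, a ratio of 5.94, and its partner Nop14 had 461 stimulated and 99 mock reads, a ratio of 3.98. Rcl1 and the GTPase Bms1 bind each other in yeast, and here their intervals did not overlap. Rcl1 had 225 stimulated and 32 mock reads, a ratio of 6.01 (4.14 to 9.01), and Bms1 had 536 stimulated and 193 mock reads, a ratio of 2.38 (2.01 to 2.82). Dhx37, the helicase that removes U3 from the precursor, and Utp14a, its activator, had nearly equal ratios. Dhx37 had 360 stimulated and 94 mock reads, a ratio of 3.28 (2.60 to 4.16), and Utp14a had 331 stimulated and 88 mock reads, a ratio of 3.22 (2.54 to 4.12). Nol6, related to yeast Utp22, had 786 stimulated and 133 mock reads, a ratio of 5.06, and Wdr46, a scaffold protein of the nucleolus, had 400 stimulated and 73 mock reads, a ratio of 4.69.

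Of the DEAD-box helicases of the small subunit, Ddx52 had the lowest ratio of this group, and Ddx10 was almost level with the GTPase Bms1. Ddx10 had 330 stimulated and 119 mock reads, a ratio of 2.37 (1.92 to 2.95), against 2.38 (2.01 to 2.82) for Bms1. Ddx52, whose yeast counterpart Rok1 releases a small nucleolar RNA from the precursor, had 174 stimulated and 178 mock reads, a ratio of 0.836 (0.675 to 1.04), and its interval includes 1. It was the only measured member with a ratio below 2, and the next lowest, the large subunit helicase Ddx54, had a ratio of 2.11. The junctions of Ddx52 lie between chr11:83755767-83775251 (mm9, plus strand). In the mock library Ddx52 was among the members with the highest level per junction, at 11.1 RPM, against 9.27 RPM in the stimulated library.

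The 5 late factors of the small subunit, which act on the particle as it leaves the nucleolus and matures in the cytoplasm, were all called higher and had the highest median of the groups with 3 or more members, 3.67. Bysl, whose yeast counterpart Enp1 stays on the particle during export, had 131 stimulated reads and 1 mock read, a ratio of 112 (19.8 to 4459), on 6 junctions between chr17:47738848-47747855 (mm9, minus strand). With 1 mock read the size of this ratio is poorly known, but its lower limit was the highest of all members. Tsr1, a protein related to translational GTPases, had 554 stimulated and 34 mock reads, a ratio of 13.9 (9.85 to 20.3), and Rrp12, a factor of helical repeats known for export in yeast, had 731 stimulated and 49 mock reads, a ratio of 12.8 (9.55 to 17.4). These 3 stood above the other members of the group. Nob1, the nuclease that makes the final cut of the small subunit RNA, had 250 stimulated and 38 mock reads, a ratio of 5.63 (3.99 to 8.14). Ltv1, which leaves the particle late, had 440 stimulated and 80 mock reads, a ratio of 4.70 (3.70 to 6.05), and its interval lay below those of Bysl, Tsr1 and Rrp12.

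**Figure D2:**
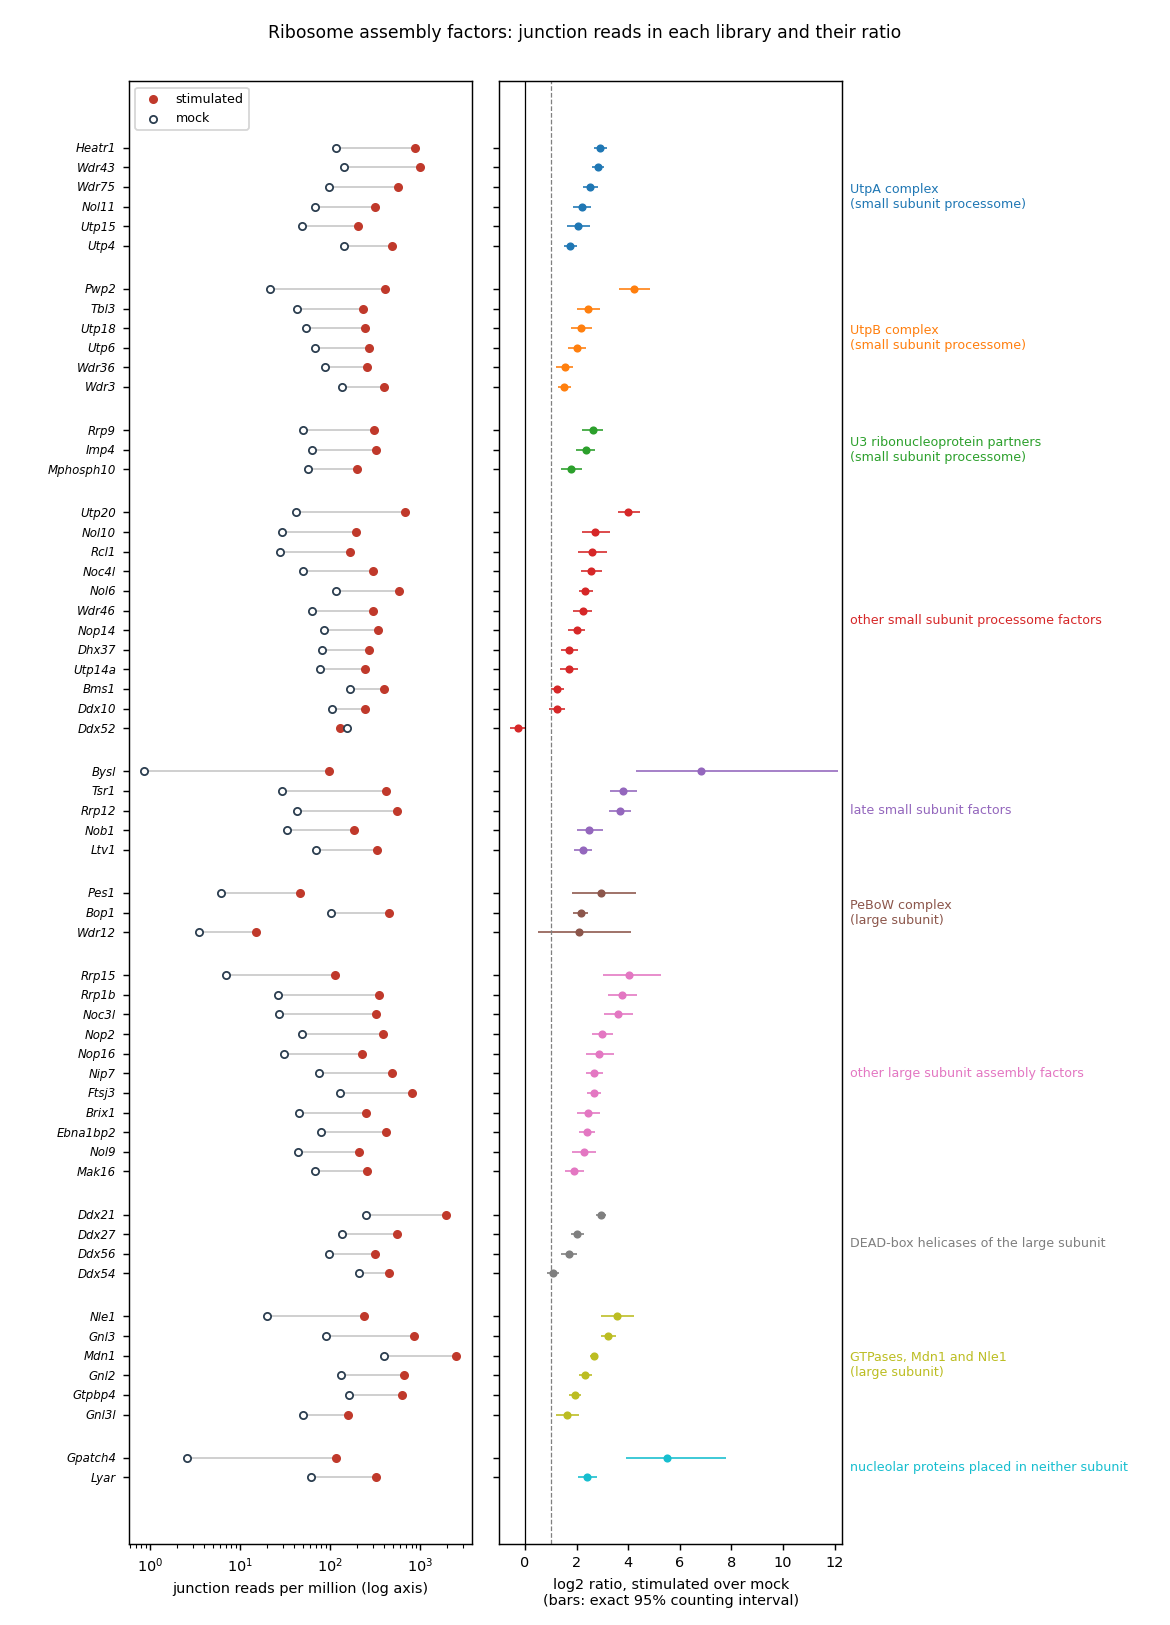
Junction reads per 1000000 (RPM) of each of the 58 measured members in the stimulated library (filled red) and the mock library (open), on a log axis, and at the right the log2 ratio, stimulated over mock, with its exact 95% counting interval, grouped by role; the dashed line marks a 2-fold ratio. All ratios but that of Ddx52 lie to the right of the dashed line, the intervals of Bysl, Gpatch4, Pes1 and Wdr12 are the widest, and Bysl had 131 stimulated reads against 1 mock read.

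The PeBoW complex, which is needed to process the RNAs of the large subunit, had 3 members called higher with a median of 2.16. Bop1 had 605 stimulated and 116 mock reads, a ratio of 4.46 (3.65 to 5.49). Pes1 had 63 stimulated and 7 mock reads, a ratio of 7.70 (3.53 to 19.9), and Wdr12 had 20 stimulated and 4 mock reads, a ratio of 4.28 (1.43 to 17.2). The 3 intervals overlap, and Wdr12 was no longer called higher when intervals were widened by the spread between the junctions of a gene. Wdr12 and Pes1 had the lowest levels per junction of all members in the stimulated library, 2.13 and 5.87 RPM, with 7 named junctions for Wdr12 and 8 for Pes1 beside 16 annotated introns in each. Both have processed pseudogenes in the annotation, copies without introns to which reads can also align: Gm4879 matches the Wdr12 transcript over 1272 bases at 97.7% identity, and Gm5910 matches Pes1 over 1771 bases at 95.5%. The part of these copies in the low counts was not tested.

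Among the 12 other assembly factors of the large subunit 11 were measured and all 11 were called higher, with a median of 2.68. Rrp15 had 152 stimulated and 8 mock reads, a ratio of 16.3 (8.04 to 38.3), on 4 junctions between chr1:188545426-188573042 (mm9, minus strand). Rrp1b, a nucleolar protein related to yeast Rrp1, had 473 stimulated and 30 mock reads, a ratio of 13.5 (9.32 to 20.2), and Noc3l, related to yeast Noc3, had 437 stimulated and 31 mock reads, a ratio of 12.1 (8.37 to 17.97). The lower limits of these 3 lay above 8, higher than those of the other 8 members of the group. The RNA methyltransferase Ftsj3 had the most reads, 1082 stimulated and 146 mock, a ratio of 6.34 (5.33 to 7.59), and Nop2, also an RNA methyltransferase, had 522 stimulated and 56 mock reads, a ratio of 7.97 (6.04 to 10.7). Nop16 had 302 stimulated and 35 mock reads, a ratio of 7.38 (5.19 to 10.8). Nip7, an RNA-binding factor, had 645 stimulated and 86 mock reads, a ratio of 6.42 (5.12 to 8.13). Brix1 and Ebna1bp2, whose yeast counterparts bind early large subunit particles, had nearly equal ratios. Brix1 had 333 stimulated and 52 mock reads, a ratio of 5.48 (4.08 to 7.49), and Ebna1bp2 had 559 stimulated and 91 mock reads, a ratio of 5.25 (4.20 to 6.63). Nol9, a kinase that acts on the 5′ ends of cut precursor RNA, had 283 stimulated and 50 mock reads, a ratio of 4.84. Mak16 had the lowest ratio of the group, 3.76 (2.94 to 4.86), with 347 stimulated and 79 mock reads.

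The 4 measured DEAD-box helicases of the large subunit were called higher, with the lowest median of the role groups, 1.85. Ddx21, which is known to act at the genes of ribosomal RNA as well as on precursor RNA, had 2589 stimulated and 288 mock reads, a ratio of 7.69 (6.81 to 8.72), on 14 junctions between chr10:62045356-62064875 (mm9, minus strand). The other 3 lay well below it. Ddx27 had 732 stimulated and 155 mock reads, a ratio of 4.04 (3.39 to 4.84), Ddx56 had 421 stimulated and 112 mock reads, a ratio of 3.22 (2.60 to 4.00), and Ddx54 had 596 stimulated and 242 mock reads, a ratio of 2.11 (1.81 to 2.46). None of these 3 intervals reached that of Ddx21. A pseudogene matches Ddx21 over 398 bases at 95.2% identity.

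The GTPases that check and remodel the large subunit, with Mdn1 and its partner Nle1, were all 6 called higher with a median of 2.50. Mdn1, the ATPase that pulls assembly factors off the particle, had more reads than any other member in both libraries, 3356 stimulated and 451 mock, a ratio of 6.37 (5.77 to 7.04), on 101 junctions between chr4:32744328-32860925 (mm9, plus strand). Nle1, which in yeast is the factor that Mdn1 pulls, had 317 stimulated and 23 mock reads and a higher ratio, 11.8 (7.72 to 18.9). By counting error alone its interval does not overlap that of Mdn1, but its lower limit, 7.72, lies close to the upper limit of Mdn1, 7.04. Gnl3, also called nucleostemin and known from dividing stem and tumour cells, had 1132 stimulated and 104 mock reads, a ratio of 9.31 (7.61 to 11.5). Its relatives had lower ratios: Gnl2 with 894 stimulated and 153 mock reads had 4.998 (4.21 to 5.97), and Gnl3l with 210 stimulated and 58 mock reads had 3.10 (2.31 to 4.22). Gtpbp4, related to yeast Nog1, had 847 stimulated and 188 mock reads, a ratio of 3.85 (3.29 to 4.54). The interval of Gnl3 overlapped neither that of Gnl2 nor that of Gnl3l.

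The 2 nucleolar proteins placed in neither subunit were both called higher. Gpatch4, which in human cells works with a helicase in the nucleolus, had 157 stimulated and 3 mock reads, a ratio of 44.8 (15.04 to 219), on 8 junctions between chr3:87847102-87858879 (mm9, plus strand). Lyar, a zinc-finger protein of the nucleolus, had 437 stimulated and 70 mock reads, a ratio of 5.34 (4.14 to 6.98). Gpatch4 and Bysl had the highest ratios of all members, and both were close to absent from the mock library.

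Levels of different genes were compared per named junction, because genes with more junctions collect more reads. The median level of the 58 members was 21.3 RPM per junction in the stimulated library and 4.32 in the mock library. Ddx21 was the highest in the stimulated library at 138 RPM per junction, followed by Nip7 at 120, Nop16 at 56.3 and Wdr43 at 52.3, and in the mock library Nip7 at 18.7 and Ddx21 at 17.9 were the highest. Nip7 stood so high through 1 of its 4 junctions, which held 521 of its 645 stimulated and 61 of its 86 mock reads. By the median over the junctions of each gene, in place of the mean, Nip7 had 40.3 RPM in the stimulated library, below Nop16 and Wdr43 at 48.5 each, and 10.9 RPM in the mock library, below Ddx21 at 15.3 and Gtpbp4 at 11.3. Ddx21, at 106 RPM, was the highest in the stimulated library by this measure too. By the mean, the highest level over the lowest was 64.7 in the stimulated library and 129 in the mock library.

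Within 8 of the 10 role groups the mean levels per junction spanned a narrower range in the stimulated library than in the mock library. By the median over junctions the stimulated span was narrower in UtpB, the U3 partners and the GTPases with Mdn1 and Nle1. It was not narrower in UtpA or the large subunit helicases. In the remaining groups the lowest median mock level was 0, which leaves no mock span. Spans in sets of other genes were not computed. In the UtpB complex they spanned 10.5 to 20.1 RPM per junction in the stimulated library, 1.92-fold, and 1.09 to 5.07 in the mock library, 4.65-fold, and Pwp2 held the highest stimulated and the lowest mock level. In the late small subunit factors the span was 2.02-fold, from Bysl to Ltv1, in the stimulated library and 48.0-fold, between the same genes, in the mock library, where Bysl had 1 read. By the median over junctions the stimulated span of this group was 3.86-fold, and the median level of Bysl in the mock library was 0. The other small subunit factors spanned 2.53-fold in the stimulated and 15.6-fold in the mock library, and the GTPases with Mdn1 and Nle1 3.97-fold in the stimulated and 5.29-fold in the mock library. The other large subunit factors spanned 7.01-fold in the stimulated and 13.2-fold in the mock library, with Nip7 at the top of both. By the median over junctions their stimulated span was 3.33-fold, with Nop16 at the top, and the lowest mock level, that of Rrp1b, was 0, so that no mock span can be given. The span of the UtpA complex differed little, 3.08-fold in the stimulated and 3.41-fold in the mock library, and by the median over junctions it was 3.17-fold in the stimulated library and no longer narrower than in the mock library. The U3 partners spanned 1.63-fold in the stimulated and 1.96-fold in the mock library. The group placed in neither subunit, Lyar and Gpatch4 alone, spanned 2.78-fold in the stimulated and 23.3-fold in the mock library, where Gpatch4 had 3 reads. The large subunit helicases went the other way, 5.90-fold in the stimulated and 2.65-fold in the mock library, with Ddx21 at the top of both, and PeBoW spanned 14.1-fold in the stimulated and 13.5-fold in the mock library. Mock counts were low in the groups with the widest mock spans, and their part in these spans was not tested.

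**Figure D3:**
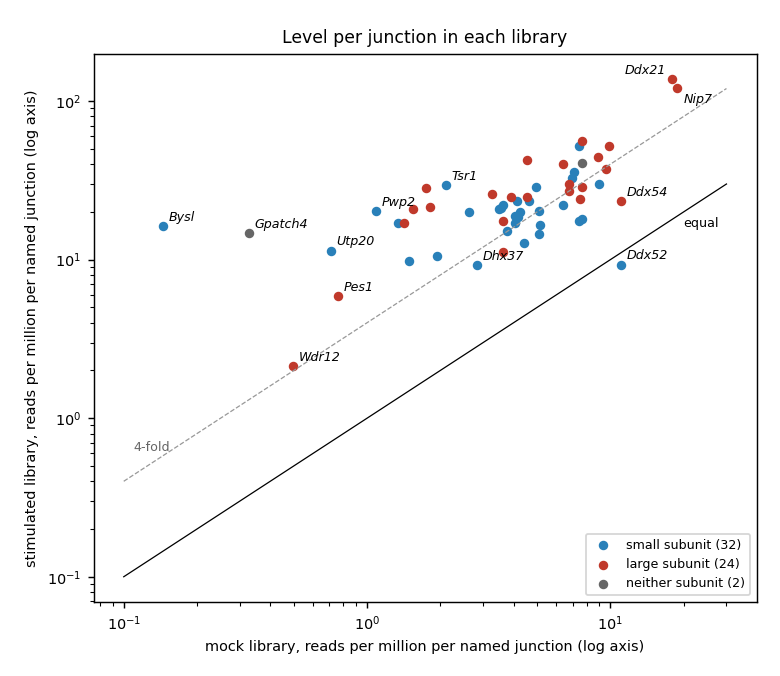
Level of each measured member in the stimulated library (y axis) against the mock library (x axis), in RPM per named junction on log axes, coloured by subunit; the lines mark equal levels and a 4-fold ratio. Ddx52 alone lies below the line of equal levels, Bysl and Gpatch4 lie farthest above it, and Wdr12 and Pes1 have the lowest stimulated levels, 2.13 and 5.87 RPM per junction.

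The difference was also present junction by junction. The 58 members had 1014 named junctions, of which 1007 were seen in the stimulated library and 772 in the mock library. 242 of them (23.9%), with 3317 reads, were seen in the stimulated library alone and 7 (0.690%) in the mock library alone. Of all 95469 named junctions 14.1% were seen in the stimulated library alone and 16.5% in the mock library alone. Of the 845 junctions with at least 10 reads over both libraries 836 (98.9%) had a ratio above 1, against 46.3% of the 48075 such junctions of all named genes. Of the 57 members with such a junction, 53 had a ratio above 1 at every one of them. The 9 exceptions were 6 junctions of Ddx52 and 1 each of Utp6, with 10 reads in each library, of Wdr3, with 5 stimulated and 7 mock reads, and of Dhx37, with 7 stimulated and 8 mock reads. Junctions of a gene share the library and are not replicates.

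In the 5 members with the most junctions every junction with at least 10 reads was above 1, with the exception of that in Dhx37. Mdn1 had 82 such junctions, with log2 ratios of 0.91 to 4.94, and Heatr1 had 40, with 1.23 to 4.36. Utp20 had 38, with 1.19 to 4.48, and 59 of its junctions were seen in the stimulated library but 24 in the mock library. Rrp12 had 25, with 1.51 to 4.77, and Dhx37 had 19, with -0.42 to 2.31. A junction with 0 mock reads is set against 3 reads, so that in Utp20 and Rrp12 many junction ratios are bounds that lie below the ratio of the summed reads. In Ddx52 7 of 13 such junctions were above 1 and the values ran from -1.23 to 2.23. Its most-read junction, at chr11:83758172-83759606 (mm9), had 27 stimulated and 48 mock reads, and its junction at chr11:83771040-83772948 had 11 stimulated and 2 mock reads, so that the junctions of this gene did not all point one way.

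**Figure D4:**
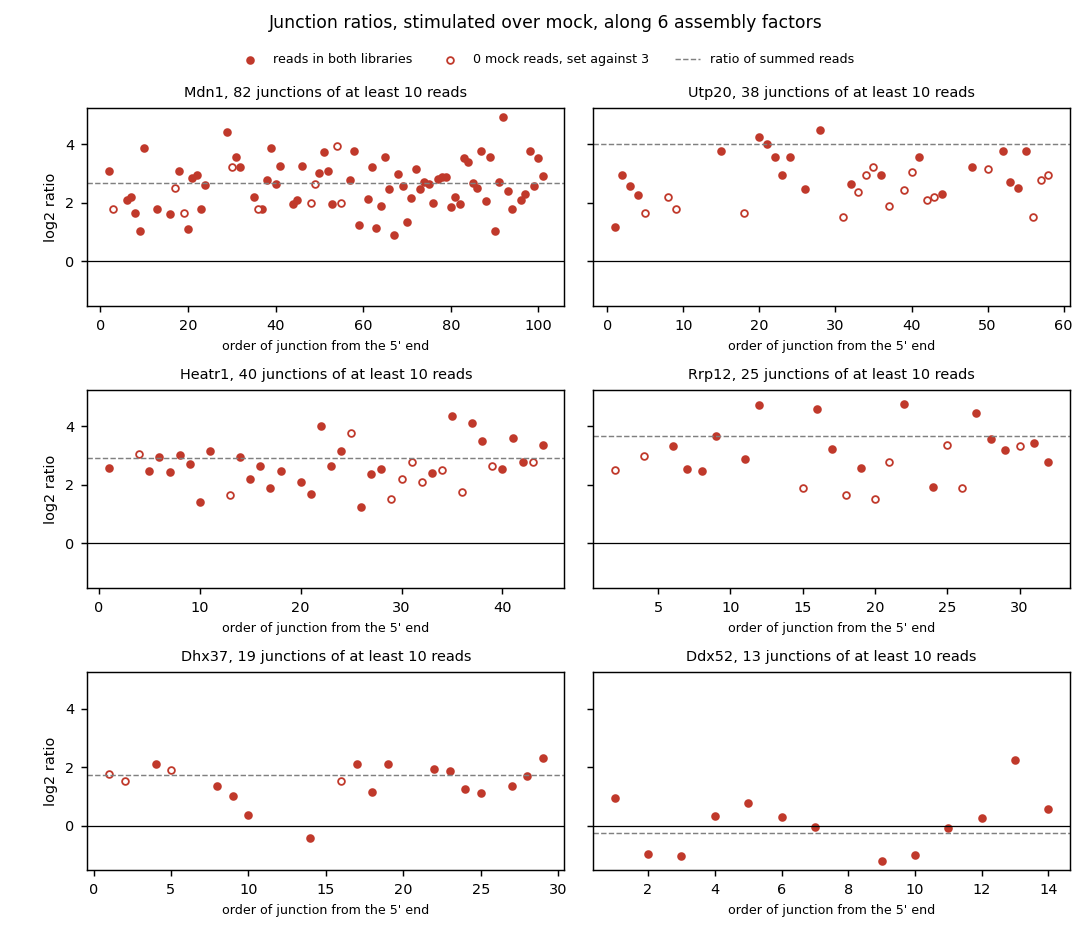
Log2 ratio, stimulated over mock, of each junction with at least 10 reads, in order from the 5′ end, for the 5 members with the most junctions and for Ddx52; open points had 0 mock reads and are set against 3, and the dashed line is the ratio of the summed reads. All points of Mdn1, Utp20, Heatr1 and Rrp12 lie above 0, 1 of the 19 points of Dhx37 lies below it, and those of Ddx52 fall on both sides.

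Over the set the ratio was similar at both ends of the genes. When the junctions of a gene were split in order into a 5′ and a 3′ part, the median log2 ratio of 57 members was 2.40 in the 5′ part and 2.48 in the 3′ part. The median of the difference, 3′ minus 5′, was -0.04 in the members and -0.09 in 4991 measured genes. Its interval spanned 0 in 45 members, lay above 0 in 6 (Bop1, Brix1, Ddx21, Heatr1, Mphosph10 and Nop2) and below 0 in 6 (Ddx56, Gnl2, Gnl3, Gnl3l, Rrp15 and Rrp1b). That is 10.5% of the members in each direction, near the 7.01% above 0 and 10.5% below 0 of the 4991 genes. These intervals cover counting error only, and widened by the spread between junctions they stayed above 0 in 1 member, Heatr1, and below 0 in 2, Gnl2 and Gnl3, against 2.66% of the genes above and 4.59% below. Gnl2, Gnl3 and Gnl3l were below 0 by the counting interval, with differences of -0.80, -1.10 and -1.16, but the widened interval of Gnl3l spanned 0. Gtpbp4, a GTPase of the same role group, had a difference of -0.24 with a counting interval of -0.73 to 0.25. Rrp1b, whose widened interval spanned 0, had the largest difference, -3.78, with 140 stimulated reads and 1 mock read in its 5′ part and 296 stimulated and 29 mock reads in its 3′ part. In Rrp15 the 5′ part had 102 stimulated and 0 mock reads and the 3′ part 50 stimulated and 8 mock reads. In these 2 genes the mock library thus had reads almost only in the 3′ part. Of the reads in both parts, members took 56.1% from the 3′ part in the stimulated library and 56.9% in the mock library.

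**Figure D5:**
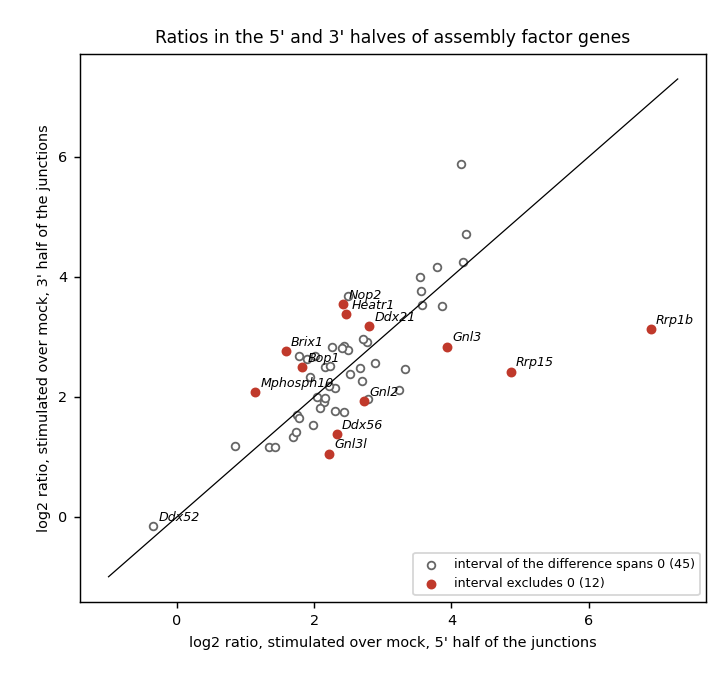
Log2 ratio, stimulated over mock, in the 3′ part of the junctions (y axis) against the 5′ part (x axis) for 57 members; red points are the 12 members whose 95% counting interval of the difference excludes 0, and the line marks equal ratios. Most points lie along the line, and Rrp1b, with a difference of -3.78, and Rrp15 lie farthest below it.

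No change of splice site use was counted in the members. Of 188 splice sites shared by more than 1 of their junctions, 10 had at least 20 reads in each library and could be compared, and at 0 of them did the share of a junction differ by at least 20 percentage points with intervals that did not overlap. In all named genes 65 of 4174 compared sites (1.56%) did. The low mock counts of the members leave most of their sites below the limit of 20 reads.

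Within the spans of 52 members lay 184 junctions on the same strand that could not be named, with 338 reads in the stimulated library and 44 in the mock library, a ratio of 6.57 (4.79 to 9.21) near that of the members' own junctions. They made up 1.02% of the reads in these genes in the stimulated library and 0.813% in the mock library. 24 of the 184 had the exact length of a named junction of the same gene and lay at most 10 bases from it, and all 4 with at least 10 reads were of this kind.

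Of the 2 members that were not named, Noc2l, whose yeast counterpart pairs with Noc3, and the helicase Ddx18, neither has a value. Ddx18 has a pseudogene copy, Gm16433, that matches it over 1984 bases at 99.3% identity. No such copy was found for Noc2l.

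The other genes of ribosome assembly also held many that were called higher and none that was called lower, with a smaller median. A list of 80 such genes held 74 that were named and 70 that were measured, of which 45 were called higher, 0 lower and 25 neither. The shares over all measured genes were 17.1% called higher and 25.1% called lower. Their median log2 ratio was 1.28, a 2.44-fold ratio, against 2.41 for the members, and both lists were chosen with earlier results known. The highest were Ccdc86, with 93 stimulated and 5 mock reads and a ratio of 15.9 (6.58 to 50.1), Ppan, with 862 stimulated and 66 mock reads and a ratio of 11.2 (8.69 to 14.6), and Znhit6, with 123 stimulated and 11 mock reads and a ratio of 9.56 (5.16 to 19.7). The lowest was Riok3, a kinase of the family that acts on the late small subunit, with 212 stimulated and 261 mock reads and a ratio of 0.695 (0.577 to 0.836). Nop53 had 726 stimulated and 756 mock reads, a ratio of 0.821 (0.741 to 0.911), and Sbds and Utp23 both had 0.855, with intervals that include 1. Among the most-read of the list were Nolc1, a chaperone of small nucleolar ribonucleoproteins, with 1685 stimulated and 152 mock reads and a ratio of 9.48 (8.03 to 11.3), and Tcof1, with 1241 stimulated and 478 mock reads and a ratio of 2.22 (2.00 to 2.47). Elsewhere in the list, Efl1, Lsg1, Nmd3 and Eif6 had ratios of 1.31, 2.31, 3.43 and 2.63, and of these Efl1 was not called.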

How the data were processed

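The 2 deposited files list splice junctions, and per the file headers they come from TopHat; the score column holds deposited raw counts, the number of reads across each junction, not normalized. The submitters' processing notes name TopHat, Cufflinks and the build mm9; versions, settings and filters: not given in the sources used here. Mean insert sizes were 199.014 bp (stimulated) and 211.79 bp (mock), per the labels' protocols.

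The annotation at hand, GENCODE M21, is on GRCm38, so no coordinate was converted. A junction took a gene's name when its chromosome, strand and intron length equalled those of an annotated intron and it had the spacing to 1 or more further such junctions that a transcript of the gene has. Of 124183 junctions 95469 (76.9%) were named, 287 fitted several genes equally and were left out, and 28427 had no name. For 99.96% of genes the shift between builds came within 1000 bp of a neighbour's. Genes with 1 intron or none cannot be named in this way.

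Values are junction reads per 1000000 (RPM). 3 reads, the limit that a count of 0 allows, are 2.24 RPM in the stimulated and 2.61 RPM in the mock library, and a ratio with 0 reads on one side is set against 3 reads. Reads are not independent molecules, so intervals and floors cover counting error only. The spread between junctions of a gene was 2.02 times the counting variance over 4918 genes. With 1 library per group no test across samples was run. A gene's 5′ and 3′ parts were compared where it had at least 4 junctions and each part had at least 20 reads over both libraries. With an odd number of junctions the middle one was left out. Pseudogene copies were sought with BLAST 2.17.0 among annotated processed pseudogenes, keeping alignments of at least 300 bases and 95% identity. The scripts ran in Python 3.11.15 with SciPy 1.17.1 and were tested on simulated data.

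The members, the lists and the rule for named genes were chosen with earlier results of these data known. Any member may be given in the text; values in full go to each role's member with the highest lower limit, the lowest upper limit and the most reads, to members not called higher and to the 5 with the most junctions. For other assembly genes the rule took the 3 highest, the 3 lowest and the 3 most read; Efl1, Lsg1, Nmd3 and Eif6 were chosen after their values were seen. Alternatives were other scalings, read minimums, folds, gene values, a wider interval and stricter naming. The Ets, GC and CCAAT motifs, the set without pseudogene copies and the wider interval of the 5′ and 3′ comparison (log odds with 0.5 added to each count) were added after the data were seen.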

Additional observations from a re-analysis of the deposited data

Results flagged for a closer look

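Of 4 junctions inside members that could not be named, enter no gene value and had at least 10 reads, 3 had a ratio whose interval lay above 1. The fourth, in Wdr3, had 7 stimulated and 4 mock reads, a ratio of 1.497 (0.381 to 6.97) whose interval includes 1. In Ddx21 such a junction at chr10:62045362-62045807 (mm9) had 28 stimulated and 3 mock reads, a ratio of 7.98 (2.47 to 41.0). It has the length of the last named junction of the gene and lies 6 bases from it, and that named junction had 248 stimulated and 25 mock reads, a ratio of 8.49 (5.61 to 13.4). In Dhx37 the junction at chr5:125895539-125895672 had 19 stimulated and 3 mock reads, a ratio of 5.42 (1.59 to 28.6), 2 bases from a named junction of the same length with 29 stimulated and 5 mock reads and a ratio of 4.96. In Mdn1 the junction at chr4:32841547-32843355 had 16 stimulated reads and 1 mock read, a ratio of 13.7 (2.13 to 574), 4 bases from a named junction with 73 stimulated and 6 mock reads and a ratio of 10.4.

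A junction at chr4:155610180-155610263 (mm9, plus strand), 84 bases long, had 20 stimulated reads and 1 mock read, a ratio of 17.1 (2.74 to 709). It lies past the last junction of Plekhn1 and has the length of a Noc2l intron, but no second junction at a matching distance, so it was not given to Noc2l and enters no count.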

How the results depend on the processing

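Between 43 and 57 members were called higher under the settings tried, and their median log2 ratio ranged from 2.26 to 2.62. The count of 43 belongs to a fold of 4, which also gave 20 other assembly genes higher, and 484 higher and 632 lower among all measured genes. 2 other scalings, a trimmed mean of M values (TMM) and the median of ratios, put the zero of the log2 ratios at -0.20 and -0.22. Under the median of ratios the median of all genes was 0.00587, which changes its sign, and 57 members were called higher under both. Of the genes called, 40.6% were higher, against 50.5% and 51.4% under these scalings, and 21.2% of measured genes were higher under the second. With the most-read junction of each gene alone, Bms1 (log2 0.82) and Ddx10 (0.92) were not called and 1 member, Ddx52, was lower (-1.06). The cause of these differences was not tested. By the median over its junctions with at least 10 reads, Ddx52 had a log2 ratio of 0.27 and was called neither. From its summed reads it had -0.26, so the sign of its ratio depends on the measure. Wdr12 was not called when intervals were widened by the spread between junctions. Without Ddx21, Pes1 and Wdr12, 54 members were higher. No paired analysis was possible because each group has 1 library, and no replicate could be left out. Low mock counts, fewer than 10 reads each, limit the ratios of Bysl, Gpatch4, Wdr12, Pes1 and Rrp15. Low mock counts also limit the comparison of splice sites.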
